A study of Rattus norvegicus with 2 samples.

Results

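The genes described here are 10 genes of the choroid plexus epithelium, namely Ttr, Sostdc1, Enpp2, Otx2, Kcnj13, Kcne2, Aqp1, Trpv4, Folr1 and Prlr. They were selected on the size of their difference between a male and a female array of the same brain region, so that difference is a description of the choice and is not tested. All 10 were found among 16581 named genes on the array, through 14 of 45595 probes outside the controls, and both arrays measured all 14 probes well above background. The tissue was the NTS (nucleus of the solitary tract), where sensory fibres from the heart, vessels and viscera end in the dorsal medulla. It was dissected from spontaneously hypertensive rats (strain SHR) aged 9 weeks, from 1.0 mm rostral to 0.5 mm caudal of the calamus scriptorius. The male group and the female group each consist of 1 array, hybridised with RNA pooled in equal amounts of 100 ng from 5 rats. All animals belong to the hypertensive strain, no treatment is named, and no normotensive strain is included. A pool does not show which of its 5 rats carried a transcript, and with 1 array per sex there is no replicate and no test between the sexes.

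The choroid plexus is a folded epithelium with a vascular stroma that hangs into the brain ventricles and secretes cerebrospinal fluid. Its cells carry ion channels, ion pumps and water channels on the ventricular face, joined by tight junctions, and they secrete carriers and signalling proteins into the fluid. One plexus lies in the fourth ventricle, whose floor is formed in part by the dorsal medulla. In RNA from whole tissue, a larger number of such cells and a larger amount of RNA per cell cannot be told apart.

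The upstream sequences of the genes at the ends of the range are shown for genomic context. A RefSeq table of the GRCr8 assembly held promoters for 5 of the 10 genes (Ttr, Kcnj13, Aqp1, Trpv4 and Prlr), with 2 start sites for Prlr. Of each, the 250 bases before the start site are considered. Windows are printed for Kcnj13, which had the highest ratio between the arrays, and for Aqp1, which held the probe with the lowest. Capitals mark exact matches, on either strand, to TATAAA (the TATA box) or CCAAT. The sequences run 5′ to 3′ toward the start site.
Kcnj13, chr9:95518987-95519236, minus strand: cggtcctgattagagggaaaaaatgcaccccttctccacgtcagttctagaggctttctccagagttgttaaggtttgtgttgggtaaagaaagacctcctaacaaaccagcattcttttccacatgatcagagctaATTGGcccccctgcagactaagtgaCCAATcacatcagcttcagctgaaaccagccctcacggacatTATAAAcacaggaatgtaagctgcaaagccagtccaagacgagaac
Aqp1, chr4:85812534-85812783, plus strand: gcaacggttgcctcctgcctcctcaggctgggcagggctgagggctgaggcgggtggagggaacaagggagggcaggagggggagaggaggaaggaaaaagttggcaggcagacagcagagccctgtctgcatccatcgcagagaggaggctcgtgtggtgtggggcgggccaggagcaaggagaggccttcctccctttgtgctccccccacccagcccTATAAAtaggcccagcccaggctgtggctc
In the Kcnj13 window TATAAA lies 46 to 41 bases before the start site, with CCAAT matches on both strands further upstream. In the Aqp1 window TATAAA lies 30 to 25 bases before it. Neither motif occurs in the windows of Ttr, Trpv4 or Prlr. TATAAA is found in 12.9% and CCAAT in 34% of all 33469 promoter windows of the same length. The motif TAATCC, which OTX-type homeodomain proteins such as OTX2 are known to bind, is absent from all 6 windows of the members and present in 6.34% of all windows, which says only that these letters are not in these stretches.

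The labels were checked first. Eif2s3y, a Y-linked translation factor gene, had a scaled signal of 22.4 in the male pool and was not well above background in the female pool, a bound of at least 65.0-fold. Scaled signal means the background-corrected brightness of a probe as a percentage of its array's 75th percentile, which is thereby set to 100. Of the probes of the Y-linked helicase gene Ddx3y, 1 was above background in the male pool alone, at least 20.2-fold, and the other read 24.3 in the male against 10.2 in the female pool. Genes of the dorsal medulla were measured on both arrays. Th and Dbh, enzymes of noradrenaline synthesis, read 602 and 532 and 399 and 381, and Slc17a6, the vesicular glutamate transporter of brainstem neurons, read 370 and 402 in the male and female pool. Over 13424 named genes measured on both arrays, the median difference was 0.02 and the SD 0.23 on the log2 scale. Differences are given throughout as female minus male.

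Averaged over the probes of each gene, all 10 genes were higher in the female pool, and 9 of them were at least 2-fold higher. That size of difference was reached in the same direction by 0.402% of the genes measured on both arrays; since the choice used this contrast, nothing is read from the comparison. In the order of differences over all measured genes the members held places 2, 3, 4, 7, 9, 13, 29, 31, 34 and 61. They were therefore not the 10 largest differences. The first place belonged to Glycam1, a mucin-like glycoprotein gene outside the choroid plexus lists, at 0.775 in the male pool and 18.7 in the female pool. Cltrn and Anxa10, at places 5 and 6, were also outside these lists.

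Among the secreted proteins, Ttr, which encodes transthyretin, the thyroxine and retinol-binding-protein carrier of cerebrospinal fluid, was read by 1 probe in 9 spots after 1 outlier spot was left out. The spots gave 589 to 635 in the male pool and 8485 to 10358 in the female pool, with no overlap. Their means of 617 and 9325 differ by 15.1-fold, and the difference of 3.92 on the log2 scale had an SD over spots of 0.10. No spot was saturated. Sostdc1, a secreted inhibitor in the BMP and Wnt pathways, read 3.61 in the male pool and 67.9 in the female pool in its single spot, which is 18.8-fold. Enpp2 encodes autotaxin, the secreted enzyme that makes lysophosphatidic acid. Its 2 spots gave 105 and 112 in the male pool and 253 and 267 in the female pool, 2.39-fold apart. Autotaxin is also made by oligodendrocytes, and the 8 oligodendrocyte markers were all slightly lower in the female pool, with a median of -0.22. Which cells gave the Enpp2 signal was not tested.

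The transcription factor gene Otx2, needed in development and adult life for the identity of this epithelium, was read by 2 probes of different brightness. The first went from 4.17 in the male to 28.3 in the female pool and the second from 1.84 to 12.4. Their folds were 6.79 and 6.77, a gap of 0.004 on the log2 scale. With normexp the same probes differed more, at 2.10 and 1.76 on the log2 scale.

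The channels gave the widest range. Kcnj13, the inward rectifier Kir7.1 of the ventricular membrane, read 0.839 in the male pool and 19.7 in the female pool, 23.5-fold apart. Its male value was 2.30 times the lowest signal that counted as well above background on that array. Trpv4, a cation channel opened by cell swelling and heat, read 3.27 and 16.9, a 5.18-fold difference. Kcne2, a small accessory subunit of voltage-gated potassium channels, had 2 probes that disagreed in size. Probe A_44_P1081425 went from 7.59 to 29.998, which is 3.95-fold, while probe A_43_P13228 went from 2.96 to 4.57, which is 1.54-fold. Aqp1, the water channel of the same membrane, showed the same kind of split. Its probe A_43_P11559 was printed in 10 spots, which read 64.7 to 73.2 in the male pool and 102 to 112 in the female pool, with no overlap and a 1.52-fold ratio. Its probe A_44_P299247 went from 2.61 to 8.80 as the mean of 2 spots, 3.37-fold. Both probes of each of these genes were higher in the female pool.

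The receptors had unlike ratios. Folr1, the folate receptor that moves folate into cerebrospinal fluid, read 32.0 in the male pool and 62.4 in the female pool, a 1.95-fold difference. It was the only member under 2-fold when probes were averaged by gene. With the brightest probe of each gene Aqp1 was also under 2-fold, and 8 of 10 members passed it. Prlr, the prolactin receptor, was close to background in the male pool with both probes. The probe of transcript NM_012630 went from 0.556 to 5.52, 9.92-fold, and that of NM_001034111 went from 0.986 to 6.04, 6.12-fold. The male value of the first was 1.52 times the lowest signal counted as well above background. The gap between the 2 Prlr ratios, 0.70 on the log2 scale, was 1.71 times its measurement error.

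**Figure D1:**
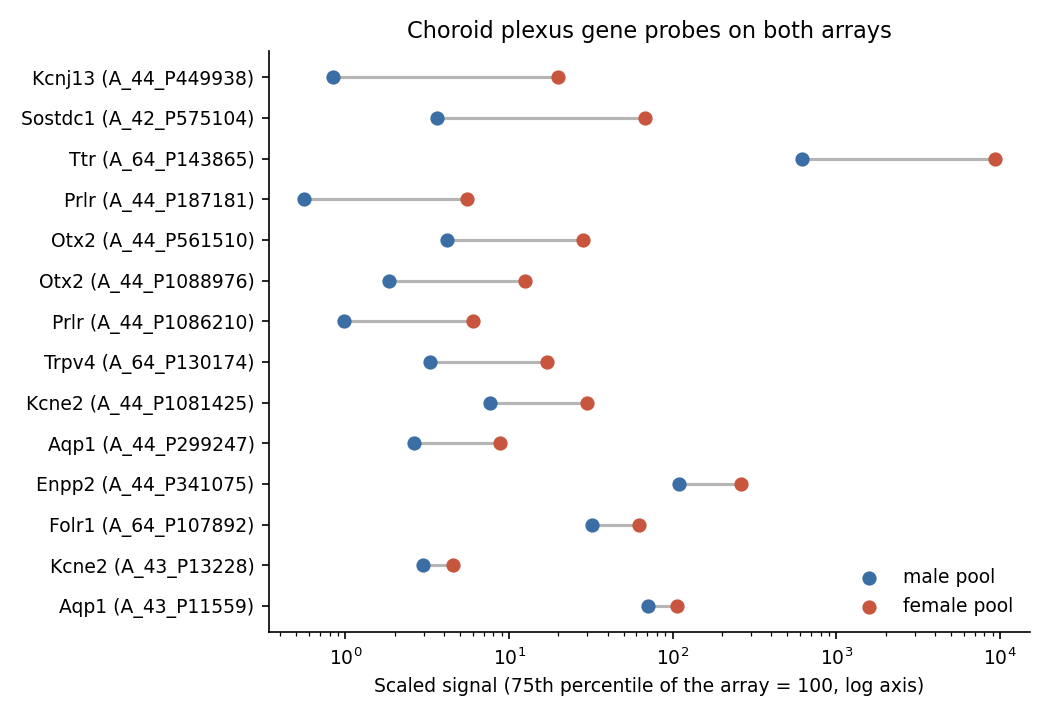
Scaled signal of the 14 probes of the 10 choroid plexus genes in the male pool (blue) and the female pool (red), on a log axis with each array's 75th percentile at 100, ordered by ratio. Each point is the mean over the spots of a probe on 1 array of pooled RNA; every red point lies to the right of its blue point, from 1.52-fold in Aqp1 to 23.5-fold in Kcnj13.

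The ratio was not 1 common factor. Over the 14 probes the difference had a median of 2.49 on the log2 scale (5.63-fold), an SD of 1.29 and a range from 0.61 to 4.56, so the highest ratio was 15.5 times the lowest. The measurement error of a difference, taken from the error that the scanner program gives each spot, was 0.20 to 0.32. The SD over the repeated spots of single members was lower, 0.014 to 0.10. Only 4 of the 14 probes lay within 2 measurement errors of their common median, namely both Otx2 probes, Trpv4 and 1 Prlr probe. Set against the SD over repeated spots of probes of like signal, the Otx2 probes lay 2.94 and 2.90 such SDs from that median. Trpv4 lay 1.31 and the same Prlr probe 0.70 such SDs from it. Of the 91 pairs of probes, 70 differed by more than 2 errors of the pair.

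None of the 13 steps between neighbours in the order was larger than 2 errors of that step; the largest, between Ttr and the upper Prlr probe, was 0.61. Averaged by gene the order had wider steps, from Ttr (3.92) to Prlr (2.96) and from Trpv4 (2.37) to Kcne2 (1.30). Kcnj13, Sostdc1 and Ttr headed the order with steps of 0.32 and 0.32, against errors of 0.33 and 0.29. Each of these steps was thus within 2 measurement errors. Repeated spots of probes of like signal varied less, with SDs of 0.092, 0.054 and 0.038 at the signals of Kcnj13, Sostdc1 and Ttr. With normexp the 3 probes read 2.499, 3.42 and 3.97, and the step between Kcnj13 and Sostdc1 was then larger than 2 of the measurement errors. Ttr, Enpp2, Folr1 and the brighter Aqp1 probe were above the median signal of measured probes on both arrays, and among these 4 the SD was 1.51. Their ratios of 15.1, 2.39, 1.95 and 1.52 thus differed at signals of 87.6 or more times the lowest signal above background in the male pool.

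Of the 4 genes with 2 probes, the ratio differed by more than 2 errors within Aqp1 and Kcne2 and by less within Otx2 and Prlr. The 2 Aqp1 probes were 1.15 apart on the log2 scale, 3.92 times the error of that gap, and the 2 Kcne2 probes were 1.36 apart, 4.61 times its error. With normexp the Aqp1 probes read 0.58 and 1.08, a gap of less than 2 errors, and the Kcne2 probes 0.30 and 1.72. In Aqp1 the dimmer probe had the larger ratio, and in Kcne2 the brighter one did. What part of each transcript these probes read was not analysed here. Across the 14 probes the difference and the male signal had a Spearman correlation of -0.37 and a Pearson correlation of -0.28 as a description; both share the male value, and several points share a gene.

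**Figure D2:**
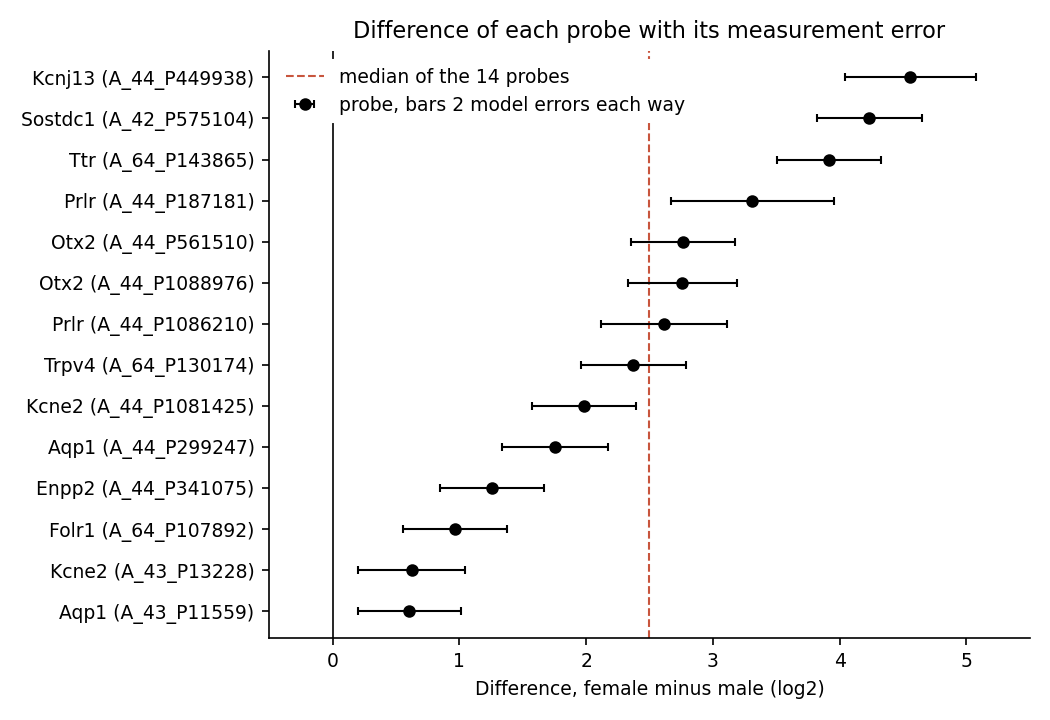
Difference of each member probe, female minus male, on the log2 scale, with bars of 2 measurement errors each way and the median of the 14 probes as a dashed line. The bars of 4 probes around 2.4 to 2.8 cross the median, and those of Kcnj13, Sostdc1 and Ttr above and of Enpp2, Folr1 and the lower Kcne2 and Aqp1 probes below do not.

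The scaled signal of Ttr was 8708 higher in the female pool, that of Enpp2 151, that of Sostdc1 64.3 and that of the brighter Aqp1 probe 36.6. The steps of the Prlr probes were 4.96 and 5.05. A step in signal depends on the probe as well as on the transcript, so these values are not amounts of RNA and are not ranked between genes.

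Background treatment moved the members with low male values. With normexp correction of the median spot signal, Kcnj13 went from 4.56 to 2.499, Prlr from 2.96 to 1.13, Otx2 from 2.76 to 1.93, Sostdc1 from 4.23 to 3.42, Trpv4 from 2.37 to 1.75 and Aqp1 from 1.18 to 0.83, the last of which is under 2-fold. Ttr, at 3.97, then had the highest ratio. Enpp2 at 1.24 and Folr1 at 0.91 hardly moved. The direction was the same in all 114 values of the 10 genes under 12 other settings. These reprocess the arrays on which the genes were chosen, so the count is a description only.

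**Figure D3:**
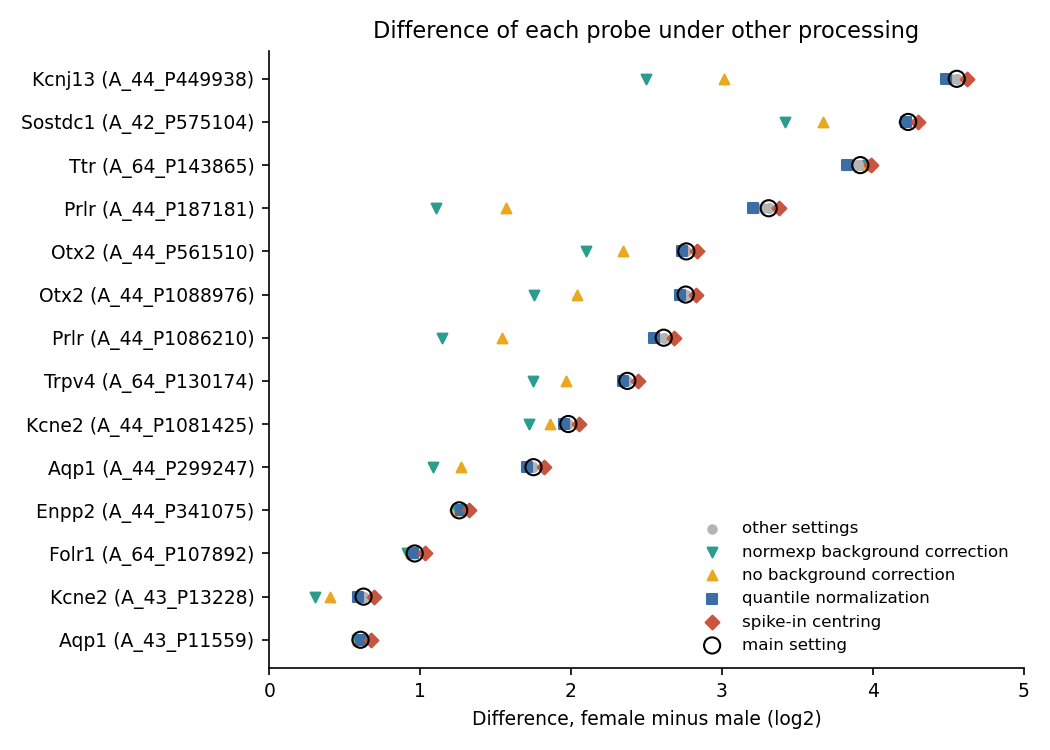
Difference of each member probe, female minus male on the log2 scale, in the main setting (open circles) and under 10 other ways of processing. Ttr, Enpp2, Folr1 and Aqp1 probe A_43_P11559 stay in place, whereas normexp and uncorrected signals pull Kcnj13, Prlr and Otx2 toward 0; no value is at or below 0.

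Other genes of the same epithelium were taken from a list of 42, of which 34 were measured on both arrays. Of these, 12 were at least 1.5-fold higher in the female pool and 1 in the male pool, and 21 were within 1.5-fold. The same limit was passed by 1.5% of all measured genes toward the female and 0.797% toward the male array, so that 65.3% of such calls were on the female side, against 46.6% after quantile normalization, 48.1% after loess, 52.9% with normexp and 76.1% with spike-in centring. The median of the 34 was 0.30, and 0.07 over the 20 genes with probes above the median signal. The tight junction genes of the list were unlike each other, with Cldn2, which makes a cation-permeable junction, at 0.844 in the male pool and 6.04 in the female pool (7.16-fold) and Cldn1 at 1.32 and 5.505 (4.16-fold), but Cldn3 at 29.7 and 30.4. Clic6, an intracellular chloride channel gene, read 0.785 and 4.53 (5.77-fold). Kl, which encodes the FGF23 co-receptor klotho, read 1.54 and 6.72 (4.37-fold). Slc4a5, the electrogenic bicarbonate cotransporter of the ventricular membrane, read 1.05 and 2.47 (2.35-fold). The collagen gene Col8a1 was 2.15-fold and Igfbp2, a secreted binding protein of insulin-like growth factors, 2.09-fold higher in the female pool.

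Between 1.5-fold and 2-fold were Ace, the angiotensin-converting enzyme gene (1.70-fold), Calml4 (1.64-fold), Slc22a8, an organic anion transporter gene (1.58-fold), Steap1 (1.57-fold) and Wfdc2 (1.52-fold). With normexp, Slc4a5, Slc22a8, Steap1 and Wfdc2 were 1.43-fold, 1.46-fold, 1.35-fold and 1.34-fold, and 8 of the 12 calls were left. Over all 13424 measured genes, 37 passed 1.5-fold toward the female array with normexp. Clic6, Kl and Cldn1 were then 2.01-fold each and Cldn2 2.34-fold. The genes Mfrp, Tmem72 and Abca4 were above background in the female pool alone, with bounds of at least 17.8-fold, 7.22-fold and 4.76-fold. Mfrp is a membrane frizzled-related protein gene also known from the retinal pigment epithelium, whose marker Rpe65 was 1.41-fold higher in the female pool while Rlbp1, Best1 and Rgr were within 1.26-fold and higher in the male pool.

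The other 21 measured genes of the list were within 1.5-fold. Slc16a8, the lactate transporter of the basal membrane, was 1.37-fold, Cgnl1 1.36-fold and Sulf1 1.42-fold higher in the female pool. Krt8 and Krt18, the keratin pair of simple epithelia, were both 1.23-fold higher there, as were Ecrg4 (1.24-fold), Cdh3 (1.23-fold) and Htr2c, the serotonin receptor first known from this tissue (1.17-fold, with probes at -0.15 and 0.61). The pump subunit gene Atp1b1 was within 1.05-fold, the anion exchanger gene Slc4a2 within 1.07-fold, and the chloride cotransporter gene Slc12a2 within 1.02-fold. Slc15a2, Spint2, Ezr, Cldn3, Slc31a1 and Lmx1a were within 1.07-fold and the homeobox gene Msx1 within 1.11-fold. Slc39a4 and Car12 were 1.19-fold and 1.23-fold higher in the male pool. Lbp, a lipopolysaccharide-binding protein gene, was the 1 gene of the list past 1.5-fold in the male pool, at 1.53-fold, and 1.25-fold with normexp. Epcam was below background on both arrays. Many genes of the whole list are also expressed by neurons, glia or vessels of the brain. Which cells gave their signals was not tested.

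**Figure D4:**
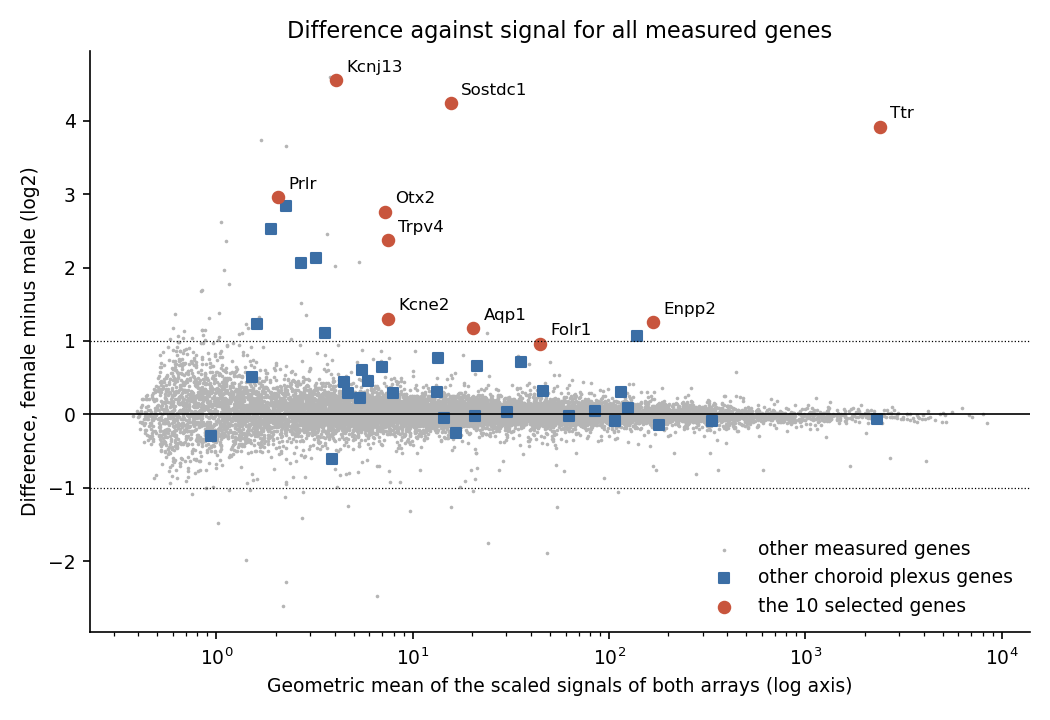
Difference, female minus male on the log2 scale, against the geometric mean of the scaled signals of both arrays for 13424 measured genes (grey), with the 10 selected genes in red and 34 other choroid plexus genes as blue squares; dotted lines mark 2-fold. The selected genes lie between 0.96 and 4.56, from Prlr at the dim end to Ttr at the bright end, with a few grey points such as Glycam1 as high or higher among dim genes, and the blue squares reach from -0.61 up to 2.84 for Cldn2.

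Receptors, ligands, partners and relatives of the members formed a further list, also drawn up with earlier results of these data known. Of 95 such genes 80 were measured, with a median of 0.02. At least 1.5-fold higher in the female pool were 4 of them (background 1.5%), and 1 was so in the male pool (background 0.797%). Kcnq1, the potassium channel that KCNE2 assembles with, was 1.84-fold higher in the female pool, at 4.09 against 7.51, and 1.55-fold with normexp. The dim inward rectifier gene Kcnj4 was 1.63-fold higher, at 0.587 against 0.954. Bmp7, a ligand of the BMP family, was 1.501-fold higher. Dio2, the deiodinase that activates thyroxine, was 1.58-fold higher in the male pool at signals of 0.819 and 0.518. With normexp, Kcnj4, Bmp7 and Dio2 were 1.08-fold, 1.23-fold and 1.12-fold.

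The brightest relatives in the groups differed little between the arrays. Thra, the thyroid hormone receptor gene, was within 1.02-fold, the BMP receptor gene Bmpr1b within 1.11-fold, and Kcnj16 within 1.02-fold. Aqp4, the water channel of astrocytes, read 1538 and 1423, a 1.08-fold difference. Mthfd1, an enzyme of folate metabolism, was within 1.01-fold and Folr2, the folate receptor of macrophages, read 20.44 and 20.03. The phosphatase gene Plpp1, which degrades lysophosphatidic acid, was 1.12-fold higher in the male pool, and the main brain receptor gene of that lipid, Lpar1, 1.13-fold. Trpv2 was within 1.02-fold and Stat5a, which carries the prolactin signal, within 1.06-fold. Prl itself was below background on both arrays. Other homeobox genes had a median of -0.03, and Msx1 was their brightest.

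No list of markers of other cells in the dissected block had a median above 0.123. The ependymal list, the ciliated cells that line the ventricle beside the plexus, had a median of 0.02 over 10 genes, none past 1.5-fold. Its brightest genes Tppp3 and Cd24 were 1.08-fold and 1.22-fold higher in the male pool, Foxj1, which drives the formation of cilia, read 42.3 and 42.2, and the summed signal was 2310 in the male pool and 2132 in the female pool. Of 12 meningeal and fibroblast genes, Slc47a1 (2.25-fold; 1.32-fold with normexp) and Igf2 (1.74-fold) were higher in the female pool and Col1a2 (1.70-fold) in the male pool. The median of that list was 0.12. Its summed signal was 801 in the male and 620 in the female pool, of which Col1a2 alone gave 469.3 and 276.5. The second brightest gene of the list, Aldh1a2, was 1.15-fold higher in the male pool. Plvap, which marks fenestrated capillaries such as those of the plexus stroma, read 51.7 and 53.8, and Plpp3 was within 1.07-fold. The other genes of the fenestrated endothelium list, Esm1 and Cd34, were 1.45-fold and 1.26-fold higher in the male pool, for a median of -0.14. Whether these signals came from the plexus was not tested. For barrier endothelium the median was -0.09, with Slc2a1 at 195 and 204 and Cldn5 1.20-fold higher in the male pool.

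The medians of the brain cell lists were -0.22 for oligodendrocytes (Mbp 1.06-fold higher in the male pool), -0.09 for neurons (Uchl1 1.03-fold and Stmn2 1.095-fold higher in the male pool), -0.07 for astrocytes (Aldoc and Aqp4) and -0.04 for microglia (Ctss and Cx3cr1, within 1.01-fold and 1.13-fold). Those of astrocytes and microglia turned to 0.003 and 0.03 when the arrays were centred on spike-in controls, and that of the ependymal list to -0.01 with centring on the array median. Among brighter probes the meningeal median turned to -0.01. The 4 measured erythroid genes were all higher in the male pool, at 1.68-fold for Hbb, 1.66-fold for Alas2, 1.90-fold for Slc4a1 and 1.89-fold for Ahsp, with summed signals of 266 and 157. With normexp Alas2 and Slc4a1 were 1.45-fold and 1.25-fold, and the median of the list was -0.63. The summed signal of the 10 choroid plexus genes was 787 against 9819, of which Ttr gave 617 and 9325. That of the second choroid plexus list was 3718 against 3783, of which the pump subunit gene Atp1b1 alone gave 2365 and 2261. Such summed signals mostly follow the brightest probe of a list and are not amounts of RNA. What part the makeup of the tissue blocks had in these differences was not tested.

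**Figure D5:**
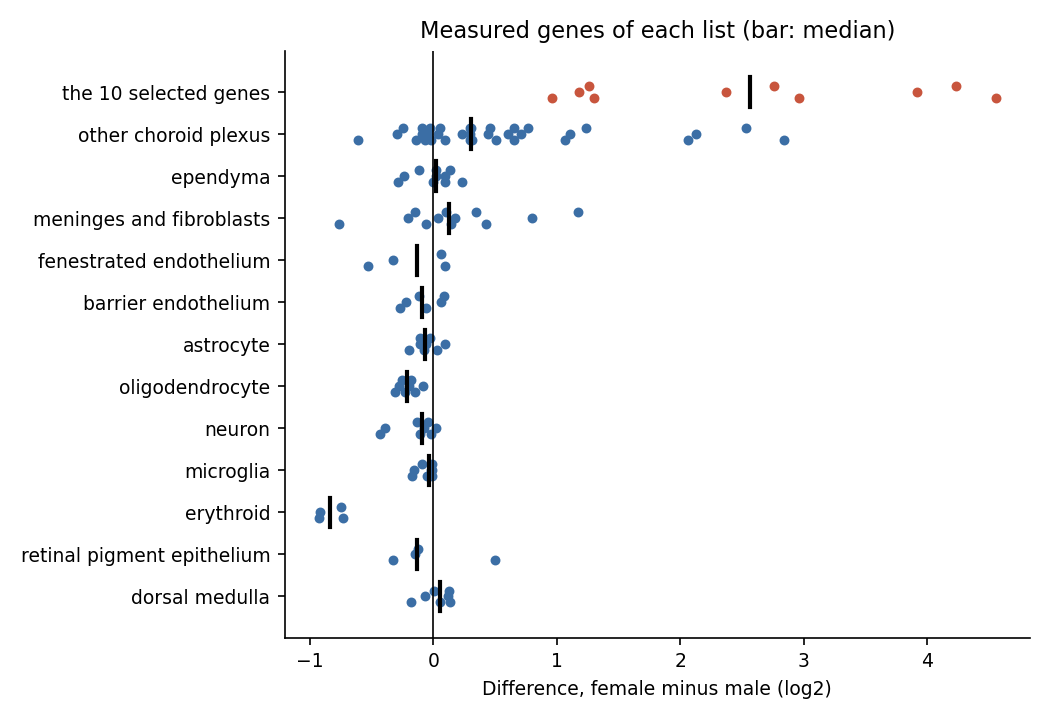
Difference of each measured gene, female minus male on the log2 scale, by gene list, with a black bar at the median of the list. The 10 selected genes (red) lie between 0.96 and 4.56, the other choroid plexus genes spread from -0.61 to 2.84, and the medians of the other lists lie between -0.22 and 0.12 apart from that of the erythroid genes, which is -0.84.

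The median difference of the 10 genes was 2.57 on the log2 scale. Among genes with a plain symbol, outside the dimmest 25%, and with all probes in 1 direction, the 8 nearest to it over these 2 arrays, leaving out the members, were S100g, Cdh1, Rsad2, Igfbp2, Sfrp2, Kcnq1, Scara5 and Sfrp1. Of these, S100g (a calcium-binding protein gene, 2.07) and Cdh1 (epithelial cadherin, 2.02) lay within 0.55 of the median, and the other 6 were 1.46 or more away. The filter on dim genes, which the member Prlr would not pass, left out genes that lay closer, such as Clic6 (2.53) and Pla2g5 (2.62). The epithelial junction gene Cdh1 read 2.00 in the male pool and 8.11 in the female pool. With 2 arrays, likeness means only a ratio of similar size.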

How the data were processed

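The samples were 2 pools of NTS RNA, 1 of male and 1 of female SHR rats, each on 1 Agilent 1-colour array. Per the labels' protocols, RNA of 5 rats was pooled before labelling with Cy3. Both arrays shared a slide and a scan, per the file headers. The deposited scanner files give each spot's intensity, linear and background-corrected by Agilent Feature Extraction, version 11.5.1.1 per the file headers and 9.1 per the submitters' processing notes. The authors' deposited value table holds the same intensity divided by 1 constant per array, 22.77 (male) and 23.45 (female) (SD of the log2 ratio 0.00046 and 0.00034), over 48346 spots. Its column medians were 19.4 and 19.6, it is linear and not centred by gene, and it has no direction of its own.

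Of 58717 spots outside the controls, 80.1% (male) and 82.3% (female) were well above background. The number of arrays limits the precision. Values are log2 of the processed signal minus the array's 75th percentile, averaged over spots of a probe and then over probes of a gene. Spots with an outlier flag on either array (284 male, 363 female) were left out. A probe was measured when all its spots were well above background on both arrays. A bound sets the bright signal against the higher of the dim probe's own signal and the lowest signal well above background, which was 0.365 (male) and 0.344 (female). Gene names came from matching transcript accessions, without versions, to a RefSeq table of GRCr8 (21109 of 45595 probes); the array design uses an older assembly, so no gene coordinates are given from it.

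The measurement error combines the signal errors that Feature Extraction gives both arrays. Spot errors leave out animals, pools and labelling. The members and lists were chosen with earlier results of these data known. Named were all members, all measured genes of the second choroid plexus list and its bounds past 1.5-fold, partners past 1.5-fold with the brightest of each group, up to 4 genes past 1.5-fold and the 2 brightest of each cell list, the 8 nearest genes, Eif2s3y and Ddx3y; a few genes under this rule are not reported here. Glycam1, Cltrn, Anxa10, Foxj1, Folr2, Lpar1, Prl, Best1, Rgr, Esm1, Cd34, Pla2g5, Slc17a6 and Epcam were chosen after their values were seen. Alternatives were normexp (offset 50) and no background correction, both on the median spot signal (the mean was not used here), quantile, median, spike-in and loess (span 0.3) scaling, the authors' table, flagged spots kept, 2 filters on dim probes, 2 gene summaries and other folds. Summaries were tested on simulated data. Tools were Python 3.11.15, numpy 2.4.6, pandas 2.3.3, scipy 1.17.1, matplotlib 3.10.9, R 4.3.3 and limma 3.58.1.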

Additional observations from a re-analysis of the deposited data

How the results depend on the processing

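No paired analysis was possible because the design holds a single pool per sex, with no test. All 130 values of the 14 member probes under 10 settings and all 114 of the 10 genes under 12 settings were higher on the female array. The members were chosen for this difference and every setting reprocesses the same arrays, so these counts add no evidence on direction. The SD over member probes was 1.037 with normexp, 1.067 without background correction and 1.511 over the 4 probes above the median signal. In that last setting, which leaves out genes that are dim on the male array, 2 of 4 members were past 2-fold. There 5 of 20 other choroid plexus genes were past 1.5-fold. Over all 8436 genes of that setting, 4 passed 2-fold and 14 passed 1.5-fold toward the female array. Of the 34 other choroid plexus genes in the main setting, 7 passed 2-fold, as did 0.402% of all measured genes toward the female array. Of the 34, 4 passed 3-fold, a limit for which no share over all genes is given here. The 5 of 80 partners past 1.5-fold became 1 with normexp, 1 without background correction, 2 after quantile normalization, 2 after loess and 3 with median centring. They were 0 of 49 among brighter probes, 0 at 2-fold and 0 at 3-fold. Without a filter on dim probes 10 of 92 partners passed. In that setting the calls over all 16581 named genes rose as well, to 1134 toward the female and 513 toward the male array. Over all measured genes, the calls past 1.5-fold split 201 to 107 toward the female array (65.3%), 37 to 33 with normexp (52.9%), 137 to 157 after quantile normalization (46.6%), 141 to 152 after loess (48.1%), 268 to 84 with spike-in centring (76.1%) and 14 to 26 among brighter probes (35.0%). The cause of these shifts was not tested. The median of the erythroid list ran from -0.868 to -0.633.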

Other observations

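Of the 20 named genes with the largest difference toward the female array, 6 were among the 10 choroid plexus genes and 4 more (Cldn2, Clic6, Kl and Cldn1) on the second choroid plexus list. The members were picked for this difference, and the second list was drawn up with earlier results of these data known. The tally is therefore a description of the choice only. The other 10 of the 20 genes were on neither list and were chosen after their values were seen. Glycam1 was 24.1-fold higher on the female array, Cltrn, which encodes the amino acid transporter partner collectrin, 13.4-fold, the annexin gene Anxa10 12.6-fold and the secreted phospholipase gene Pla2g5 6.15-fold. Cxcl10, an interferon-induced chemokine gene, was 5.49-fold higher, Pon3 5.15-fold, S100g 4.19-fold, Cdh1 4.05-fold, the anion transporter gene Slc26a7 3.92-fold and Mab21l4 3.43-fold. On the male array these 10 genes read between 0.426 for Pla2g5 and 2.59 for S100g; the lowest signal that counted as well above background there was 0.365.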
